A study of Homo sapiens with 36 samples.

Results

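Collagens are the proteins that most of the extracellular matrix is built from, and the RNA of every collagen gene was followed here in 3 human melanoma cell lines under combined BRAF and MEK inhibition, with and without induced NR2F1. The members are the protein-coding genes whose symbol has the form COL, a type number, A and a chain number. There are 44 of them among 60656 genes per library. In 41 members at least 1 group reached a mean of 1, and in the other 3, COL6A5, COL6A6 and COL10A1, the highest library stood at 1.04, 0.983 and 2.46. A group mean of 1000 or more was reached by 21 members. By type they are 11 fibrillar chains, 10 fibril-associated chains, 6 basement membrane chains, 5 beaded filament chains, 4 transmembrane chains, 3 short-chain network chains, 2 multiplexins, 1 anchoring fibril chain and 2 others.

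The lines were 1205LuTR-NR2F1, WM793TR-NR2F1 and also A375TR-NR2F1 (1205Lu, WM793 and A375 below). Every group of a line carries BRAF-V600E, the Tet repressor and a doxycycline-inducible (DOX-inducible) NR2F1 cDNA. NR2F1 is an orphan nuclear receptor and transcription factor. The 4 treatments of each line were DMSO or BRAFi + MEKi, each without and with DOX. With 3 replicates this makes 12 groups and 36 libraries. BRAFi was PLX4720 at 1 uM, MEKi was PD0325901 at 35 nM, DOX was used at 100 ng/mL, and treatment lasted 72 h after a 24 h period that the labels give with or without DOX. The study's methods describe that period with DOX and set no group apart, so whether groups named without DOX had any in it cannot be told. No library had DOX without the NR2F1 cDNA, so DOX itself and NR2F1 cannot be told apart. Tu2% medium was used for 1205Lu and WM793 and DMEM with 10% FBS for A375, so line and medium cannot be told apart either.

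A collagen molecule is a triple helix of 3 chains, either 3 copies of a single gene product or a mix of partner chains. Fibrillar collagens build cable-like fibrils, fibril-associated collagens sit on their surface, type IV forms the sheet of the basement membrane, and type VI forms beaded filaments that link cells to the matrix. Type VII anchors the basement membrane to the dermis, type VIII forms hexagonal networks, multiplexins such as type XVIII line basement membranes, and transmembrane collagens span the plasma membrane. In skin most collagen is made by fibroblasts, and melanoma cells add their own set of chains.

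The 6 type IV genes lie in 3 pairs, each pair head to head on opposite strands, so that partner chains start from a shared stretch of DNA. The stretches are shown because both genes of each pair were measured. Coordinates and bases are those of RefSeq for GRCh38.p14, on the plus strand and 5′ to 3′. Only bases before the start site of the second-named gene are printed, and capitals mark CCAAT (or ATTGG on the other strand) and GGGCGG (or CCGCCC). For COL4A1 and COL4A2, at chr13:110307158-110307283, the run holds all 126 bases between both start sites. For COL4A4 and COL4A3, at chr2:227164374-227164623, it is the last 250 of 418 bases between the start sites. For COL4A6 and COL4A5, at chrX:108439588-108439837, it is the last 250 of 379.
COL4A1 and COL4A2: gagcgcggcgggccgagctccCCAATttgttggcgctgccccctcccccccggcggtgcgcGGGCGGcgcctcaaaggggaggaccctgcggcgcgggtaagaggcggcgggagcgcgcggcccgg
COL4A4 and COL4A3: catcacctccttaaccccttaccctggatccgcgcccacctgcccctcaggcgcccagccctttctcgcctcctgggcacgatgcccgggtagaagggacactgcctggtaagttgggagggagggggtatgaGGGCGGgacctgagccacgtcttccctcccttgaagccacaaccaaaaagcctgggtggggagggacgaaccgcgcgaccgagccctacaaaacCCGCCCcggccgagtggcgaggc
COL4A6 and COL4A5: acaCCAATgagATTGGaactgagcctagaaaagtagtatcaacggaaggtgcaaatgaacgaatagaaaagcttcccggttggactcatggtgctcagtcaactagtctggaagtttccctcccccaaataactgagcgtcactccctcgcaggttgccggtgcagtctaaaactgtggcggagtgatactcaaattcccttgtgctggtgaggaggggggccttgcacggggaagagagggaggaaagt
The COL4A1 and COL4A2 run held 1 CCAAT and 1 GGGCGG match, the COL4A4 and COL4A3 run 2 GGGCGG matches and no CCAAT, and the COL4A6 and COL4A5 run 2 CCAAT matches and no GGGCGG. Promoter windows of 300 bases, from 250 before to 50 after a start site, were given for 32 of the 44 members, with several for some genes. CCAAT on either strand was found in 14 of the 44 collagen windows (31.8%), from 12 genes, and in 34.6% of all 35116 windows. GGGCGG was found in 24 of the collagen windows (54.5%), from 21 genes, and in 45% of all windows. TGANTCA, the core of the AP-1 element bound by FOS and JUN factors, was found in 2.27% of the collagen windows, that of COL10A1, and in 7.71% of all windows. AGGTCA or TGACCT, a half-site bound by many nuclear receptors, was found in a single collagen window, that of COL7A1, and in 13.8% of all windows. A match is a description of letters, and nothing about binding was measured.

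Levels are normalized values that the authors scaled between libraries, not read counts. They added up to between 27027824 and 34621958 per library, with an estimated depth of 6600000 to 60500000 reads and a median of 29700000, the lowest in WM793 DMSO replicate 1. The induced gene was higher in all 3 DOX libraries of a group than in the matching libraries without DOX. In 1205Lu, NR2F1 stood at 6273, 2182 and 2327 in DMSO, 20699, 9155 and 9270 with DOX, 4575, 2805 and 2966 with BRAFi + MEKi and 35187, 35345 and 30839 with both. The corresponding NR2F1 levels in WM793 were 917, 321 and 1511, 76313, 52746 and 65751, 894, 689 and 3690 and 30421, 50934 and 47577. Those in A375 were 497, 405 and 563, 19001, 31631 and 17271, 1327, 1223 and 1431 and 23714, 35683 and 14995. Under BRAFi + MEKi the DOX effect on NR2F1 was a log2 difference of 3.33 in 1205Lu, 4.99 in WM793 and 4.14 in A375, with adjusted p of 0.0049, 0.0038 and 6.7e-06. Under DMSO the 1205Lu difference of 1.93 missed the threshold (adjusted p = 0.41), while WM793 had 6.39 and A375 5.49, with adjusted p of 0.0008 and 3.3e-07. Of 8 melanocyte lineage markers, 2 (MLANA and TYR) were at 0 in every 1205Lu and WM793 library and none in A375, and the summed level of the list was between 11911 and 74396, between 22173 and 53063, and between 12566 and 44258 in the 3 lines. Keratinocyte markers summed to between 252 and 977, endothelial markers to between 0 and 79.8 and immune markers to between 353 and 6457 per library.

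The leading chains differed in part between the lines, read per kilobase of exon so that genes of different length can be compared. The means over 12 libraries pool the 4 treatments of a line, and the order differed between treatments. In 1205Lu, COL9A3, a chain of the cartilage-type fibril-associated collagen IX, led with a mean of 4350 per exon kb over 12 libraries. It was followed by COL6A2 at 3543, COL6A1 at 2280, COL18A1 at 1942 and COL22A1 at 1585. In 1205Lu DMSO, COL6A2 at 3936 and COL6A1 at 2539 lay above COL9A3 at 2179, while with BRAFi + MEKi COL9A3 stood at 7043. Over the WM793 libraries the leading chains were COL8A1 at 3372, COL6A2 at 3054, COL18A1 at 2393, COL6A1 at 2131 and COL9A3 at 2086. In WM793 DMSO, COL8A1 was at 968, below COL6A2 at 2163, COL18A1 at 1615, COL6A1 at 1530 and COL9A3 at 1447, and it led with BRAFi + MEKi at 4815. A375 was led by COL5A2 at 6137 and COL9A3 at 3306, followed at a distance by COL6A1 at 955, COL4A2 at 681 and COL6A2 at 604. COL4A2 fell with BRAFi + MEKi in A375, so its place holds for the pooled means and not for each treatment. COL9A3, COL6A1 and COL6A2 were thus among the leading 5 of the pooled means in each line. Over the 12 libraries of a line, COL9A3 ranged from 3913 to 49470 in 1205Lu (median 14677), from 4661 to 16151 in WM793 (median 11799) and from 2814 to 32341 in A375 (median 11443). COL6A1 ranged from 9284 to 17153, from 7400 to 15524 and from 3315 to 9080 in the same order. COL6A2 ranged from 13859 to 26757, from 9098 to 22606 and from 1568 to 5522. At the low end, COL2A1 never exceeded 26.9, COL20A1 5.93 and COL23A1 4.32 in any library, and COL17A1, the hemidesmosome collagen of skin, reached 412 in A375.

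**Figure D1:**
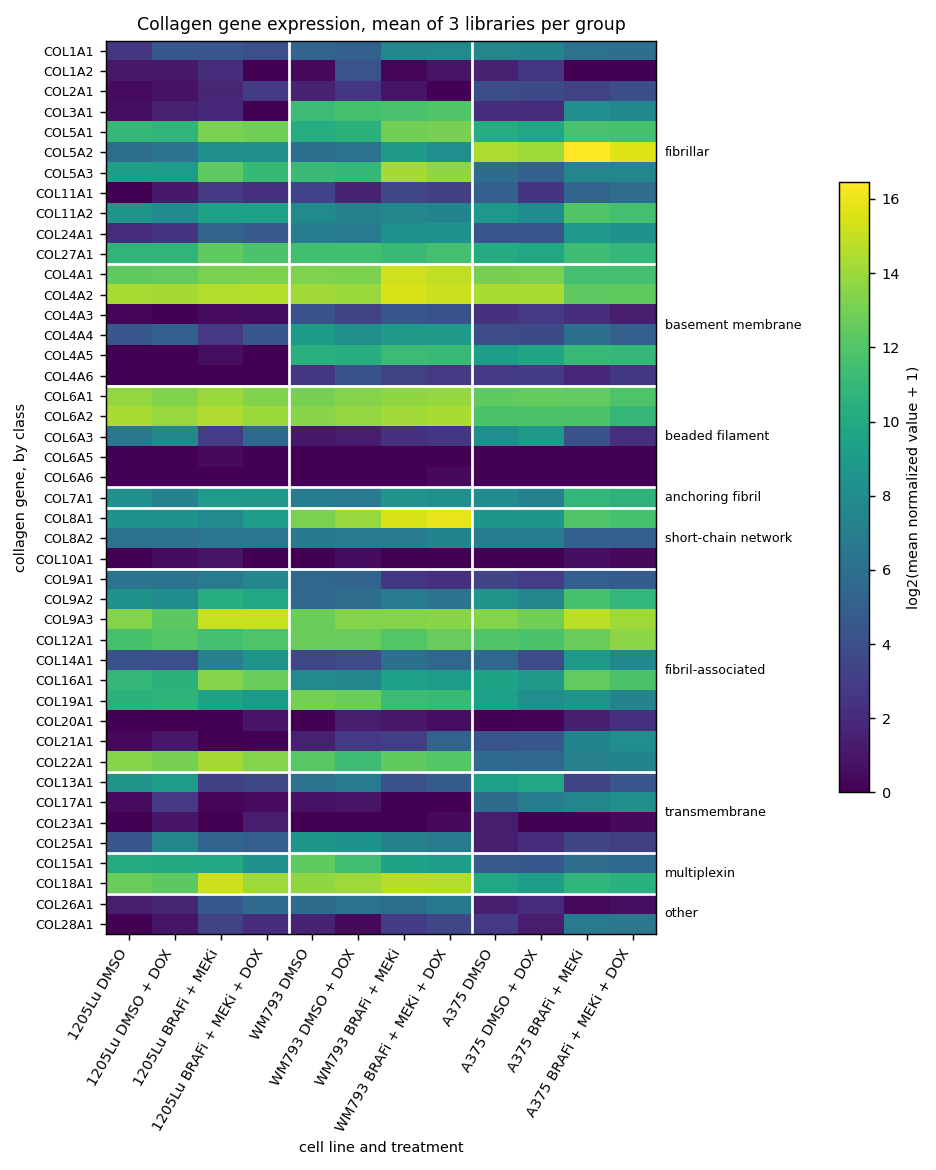
Heat map of log2(mean normalized value + 1) of the 44 collagen genes (rows, by type) in the 12 groups (columns, mean of 3 libraries each). COL4A2, COL6A1, COL6A2 and COL9A3 are bright in all groups, while COL5A2 is brightest in A375, COL3A1 in WM793 and COL22A1 in 1205Lu.

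Most partner chains were present at very unequal levels. Collagen VI needs its α1, α2 and α3 chains, encoded by COL6A1, COL6A2 and COL6A3, in 1 molecule. COL6A1 and COL6A2 lay above COL6A3 per exon kb in 36 of 36 libraries, and the mean COL6A2 level was 873 times that of COL6A3 in 1205Lu DMSO and 53.8 times in A375 DMSO (97.1 times without replicate 3). In WM793, COL6A3 was between 0 and 12.5 in all libraries, with 0, 3.32 and 0 in DMSO. Collagen IX is a mix of COL9A1, COL9A2 and COL9A3 chains, and COL9A3 lay above both others in 36 of 36 libraries. In DMSO the mean ratio of COL9A3 to COL9A2 was 27.7 (1205Lu), 137 (WM793) and 26.2 (A375). In collagen V, which pairs COL5A1 with COL5A2 in its common form, COL5A2 was at 0.047 of COL5A1 in 1205Lu DMSO and 0.0885 in WM793 DMSO but at 29.7 times COL5A1 in A375 DMSO. The α1 and α2 chains of collagen IV were closer, with COL4A2 at 2.77 times COL4A1 in 1205Lu DMSO, 1.41 times in WM793 and 1.84 times in A375, and COL4A2 was the higher in 30 of 36 libraries. These ratios are descriptions, since the exon length in the annotation may not be that of the transcripts in these cells.

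**Figure D2:**
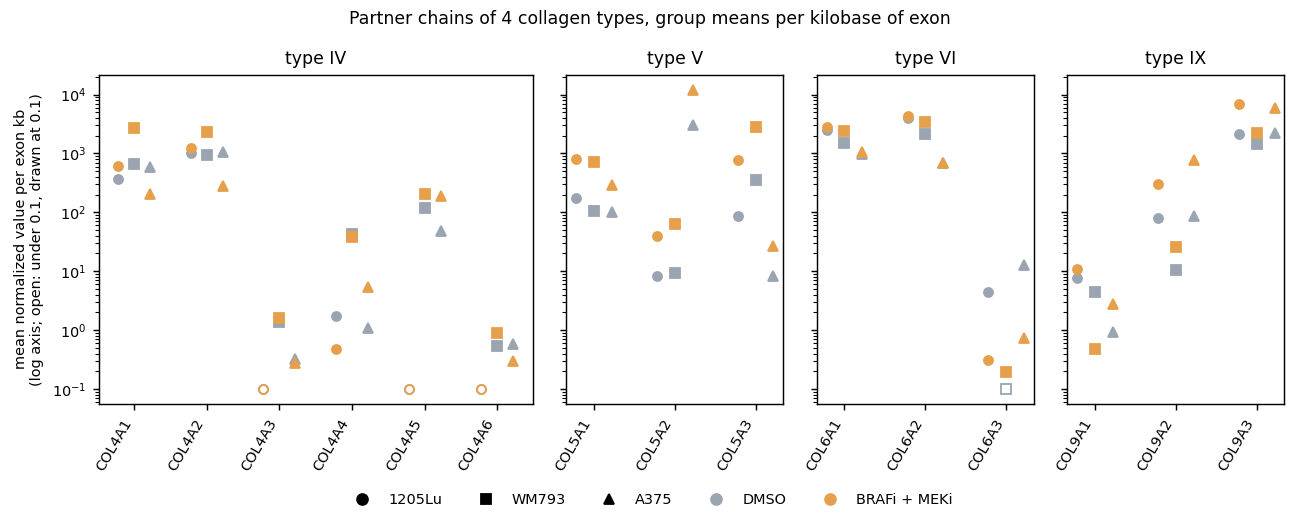
Mean normalized value per exon kb (log axis) of the chains of collagens IV, V, VI and IX in the DMSO (grey) and BRAFi + MEKi (orange) groups of each line, with 3 libraries behind each symbol and open symbols for means under 0.1. COL6A3 lies far below COL6A1 and COL6A2 in each line, and COL9A3 far above COL9A1 and COL9A2.

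Lines differed in most collagen genes before treatment. In a fit of all 36 libraries, in which 41 members were tested, the DMSO level differed for 27 between 1205Lu and WM793 (10 higher and 17 lower in 1205Lu), where 30.7% of all genes were called. It differed for 23 between 1205Lu and A375 (12 higher, 11 lower), where 46.8% of all genes were called. For WM793 against A375 the count was 30 (17 higher, 13 lower), beside 47.5% of all genes. COL3A1, a fibrillar collagen of elastic tissues, stood at 0, 1.71 and 0 in 1205Lu DMSO, 1838, 2701 and 2930 in WM793 DMSO and 3, 2.74 and 4.33 in A375 DMSO. All WM793 DMSO libraries lay above all DMSO libraries of the other lines, with a log2 difference of -10.77 for 1205Lu against WM793 and 9.15 for WM793 against A375. COL5A2, by contrast, stood at 79, 43.8 and 58 in 1205Lu DMSO, 55.6, 78.5 and 67.9 in WM793 DMSO and 25195, 27147 and 14270 in A375 DMSO, with log2 differences of -8.49 for 1205Lu and -8.30 for WM793 against A375. COL22A1, a collagen of tissue junctions, was at 10734, 12078 and 11194 in 1205Lu DMSO, 4015, 5196 and 4859 in WM793 and 67.4, 62.1 and 16.8 in A375, a log2 difference of 8.06 between 1205Lu and A375. COL4A5, an X-linked basement membrane chain, was listed at 0 in all 3 DMSO libraries of 1205Lu and stood at 1626, 1435 and 1186 in WM793 DMSO and 595, 527 and 593 in A375 DMSO.

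Under BRAFi + MEKi the share of tested collagen genes that changed was 51.4% (1205Lu), 53.8% (WM793) and 65.9% (A375), and more of them rose than fell. In 1205Lu, 15 of 37 tested members rose (40.5%, where 16.5% of all genes rose) and 4 fell (10.8%, against 14.4% of all genes). In WM793, 15 of 39 rose (38.5%, beside 20.4% of all genes) and 6 fell (15.4%, beside 16.9%). Without WM793 BRAFi + MEKi replicate 2 the falls of COL12A1, COL13A1 and COL25A1 were lost (adjusted p = 0.082, 0.051 and 0.058). In A375, 21 of 41 rose (51.2%, against 20.5% of all genes) and 6 fell (14.6%, against 19%). The median log2 change over the members was 0.73, 0.65 and 1.21, and over all tested genes 0.11, 0.15 and 0.06. Libraries of the 2 groups did not overlap for 19 of 19 called members in 1205Lu, 19 of 21 in WM793 and 25 of 27 in A375, and for 97.4%, 96.5% and 97.9% of all called genes. Fold changes are differences of mean log2(value + 1), which understates the change of genes with low values, and calls are limma tests with adjusted p values over all genes. The replicates are from independent experiments according to the study's methods. In RNA of a whole culture, fewer cells that express a gene and less RNA per cell cannot be told apart.

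**Figure D3:**
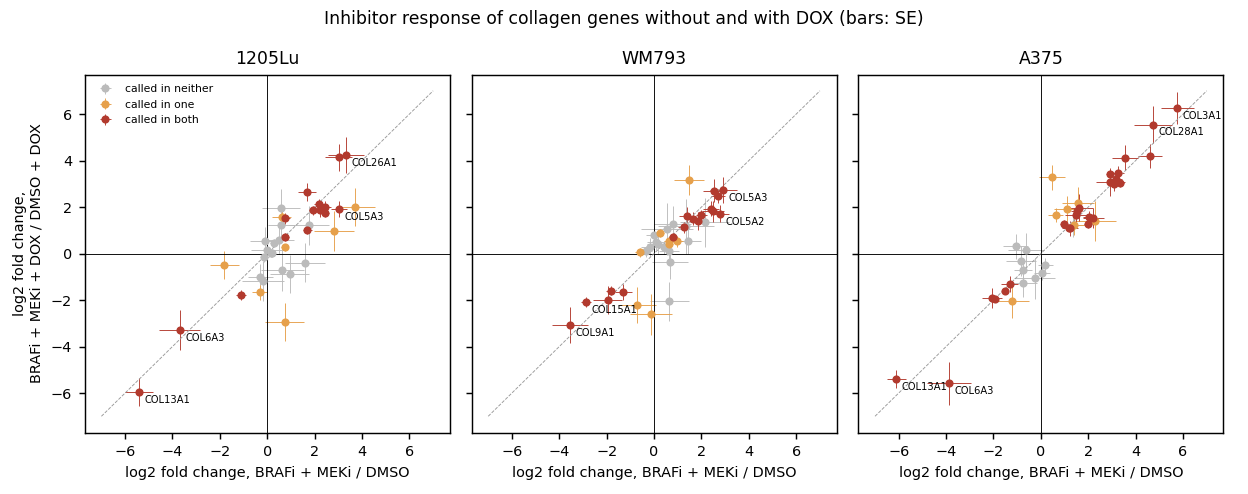
Log2 fold change of each tested collagen gene under BRAFi + MEKi, without DOX (horizontal axis) and with DOX (vertical axis), in the 3 lines, with SE bars and colour for calls in both, one or neither arm. COL13A1 lies at the bottom left in 1205Lu and A375, and COL3A1 and COL28A1 at the top right in A375.

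Of 35 members tested in all 3 lines, 6 rose in every line, namely COL5A1, COL5A2, COL14A1, COL16A1, COL18A1 and COL24A1, and COL13A1 alone fell in every line. Over all genes tested in the 3 lines, 5.77% rose and 6.07% fell in every line. In the arm with DOX, where BRAFi + MEKi + DOX was compared with DMSO + DOX, COL5A1, COL5A2, COL5A3, COL7A1, COL14A1 and COL16A1 rose and COL13A1 fell in every line, beside 4.17% and 4.88% of all genes. The 2 arms use separate libraries but the same lines. Of the calls with DOX, COL7A1 was lost in 1205Lu without DMSO + DOX replicate 2 (adjusted p = 0.059) and in WM793 without BRAFi + MEKi + DOX replicates 1 or 2 or DMSO + DOX replicates 1 or 2 (adjusted p between 0.052 and 0.065), and COL5A3 in A375 without BRAFi + MEKi + DOX replicate 3 or DMSO + DOX replicates 1 or 2 (adjusted p between 0.087 and 0.11). The fall of COL13A1 in WM793 with DOX was lost without BRAFi + MEKi + DOX replicate 2 or DMSO + DOX replicate 2 (adjusted p = 0.099 and 0.1). COL5A1, COL5A2, COL14A1 and COL16A1 rose, and COL13A1 fell, in all 6 comparisons. The share of all genes called in all 6 is not given. By contrast, 7 members were called up in some line and down in another without DOX, namely COL1A1, COL4A1, COL4A2, COL4A4, COL9A1, COL15A1 and COL25A1, with single libraries deciding some of these calls as given for each gene. They are 20% of the 35 members, beside 5.03% of all genes tested in the 3 lines. With DOX 5 of the 35 (14.3%) were called in opposite directions, beside 3.57% of all genes. Among them, the A375 calls of COL1A1 and COL15A1 were lost without DMSO + DOX replicate 2 (adjusted p = 0.062 and 0.051). Those of COL1A1 and COL9A1 were lost without A375 BRAFi + MEKi + DOX replicate 1 (adjusted p = 0.055 and 0.071). COL17A1, COL23A1, COL4A3 and COL4A6 were called in none of the 6 comparisons.

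Fibrillar chains rose more often than they fell. Without DOX, 6 of 11 rose and none fell in 1205Lu, 5 rose and none fell in WM793, and 6 rose and 1 fell in A375. Of all genes, 16.5%, 20.4% and 20.5% rose and 14.4%, 16.9% and 19% fell. Collagen V, which sits in the core of collagen I fibrils and limits their width, gave 3 of the chains that rose in 1205Lu and WM793 and 2 in A375. COL5A1 stood at 2014, 1820 and 2027 in 1205Lu DMSO and 7415, 9191 and 10622 with BRAFi + MEKi, a change of log2 2.20 ± 0.23 SE, adjusted p = 1.3e-05. In WM793, COL5A1 went from 843, 1286 and 1352 to 4514, 10748 and 8530 (log2 2.71 ± 0.30 SE, adjusted p = 1.1e-05), and in A375 from 881, 1016 and 1528 to 2724, 2436 and 4789 (log2 1.51 ± 0.23 SE, adjusted p = 0.00014). The treated libraries lay above the DMSO libraries without overlap in each line. COL5A2 rose from 79, 43.8 and 58 to 377, 264 and 216 in 1205Lu (log2 2.23 ± 0.29 SE, adjusted p = 8e-05) and from 55.6, 78.5 and 67.9 to 400, 539 and 469 in WM793 (log2 2.79 ± 0.37 SE, adjusted p = 4.9e-05). In A375, where it was the leading collagen, COL5A2 rose from 25195, 27147 and 14270 to 98150, 98243 and 71291 (log2 2.05 ± 0.27 SE, adjusted p = 4.5e-05). Again no treated library fell among the DMSO libraries, and in A375 replicate 3 was the lowest of each group. COL5A3, a further chain of the type, rose from 548, 577 and 655 to 2713, 6531 and 6422 in 1205Lu (log2 3.03 ± 0.34 SE, adjusted p = 2.8e-05) and from 1426, 3180 and 2498 to 8480, 30368 and 19079 in WM793 (log2 2.92 ± 0.57 SE, adjusted p = 0.0011). Its A375 levels of 50.4, 37.8 and 79.6 in DMSO and 122, 106 and 319 with BRAFi + MEKi did not pass the test (log2 1.57 ± 0.67 SE, adjusted p = 0.079), although the groups did not overlap. Of the exon bases of COL5A3, 3.98% overlap other genes, whose reads the unstranded library kit cannot tell apart.

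**Figure D4:**
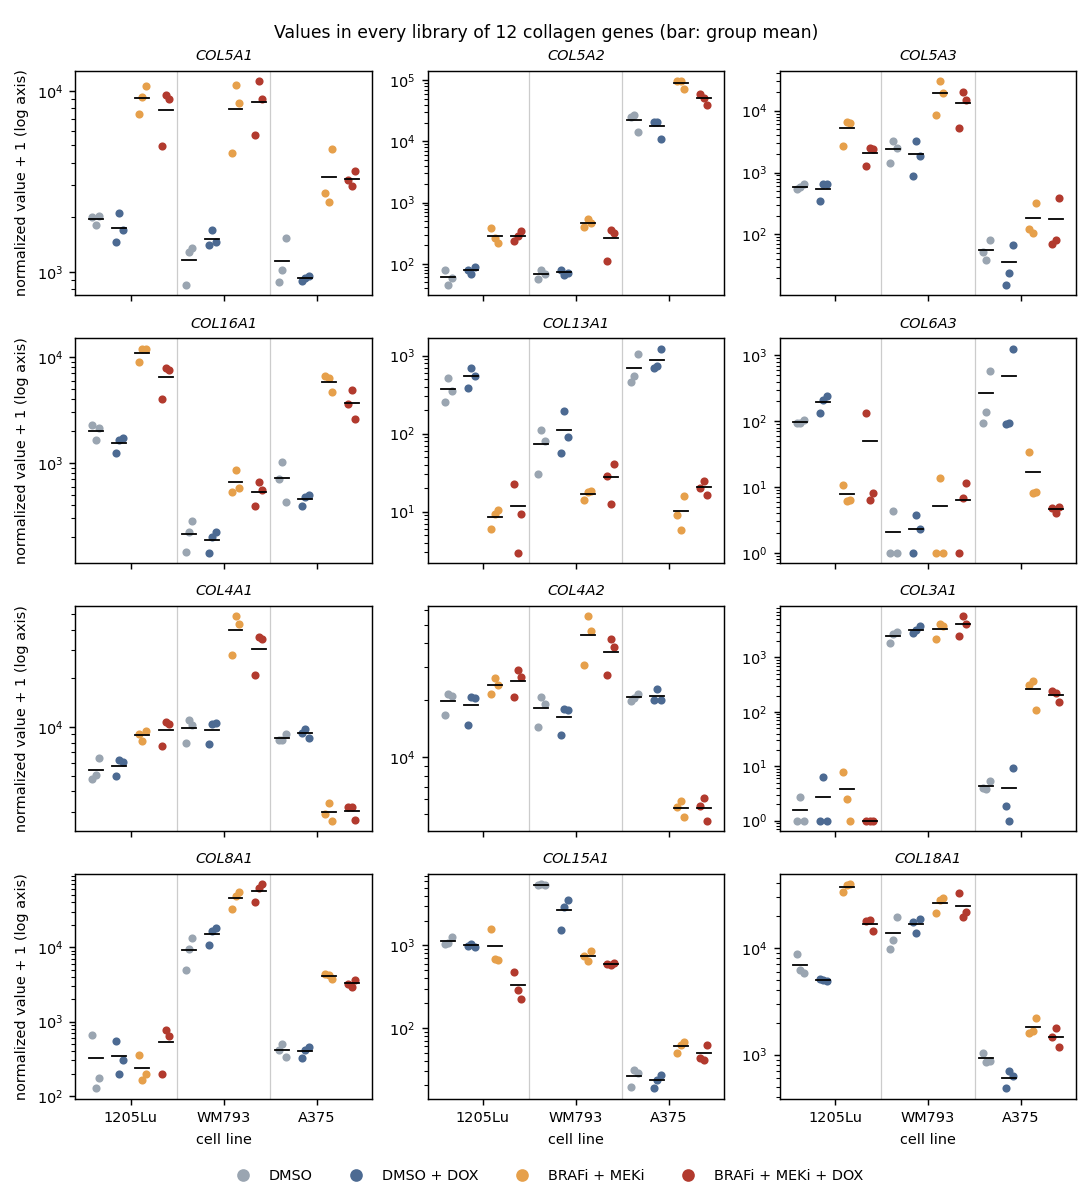
Normalized value + 1 (log axis) in each of the 36 libraries for 12 collagen genes, by line and treatment, with 3 points per group and a bar at the group mean. The BRAFi + MEKi libraries lie above the DMSO libraries in each line for COL5A1, COL5A2 and COL16A1 and below them for COL13A1, with and without DOX.

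Among the other fibrillar chains COL24A1 rose in every line, while COL1A1 rose in WM793 and fell in A375. COL24A1, a fibrillar chain of developing bone and cornea, went from 1.43, 0 and 8.77 to 24.2, 35.5 and 58.7 in 1205Lu (log2 3.72 ± 0.82 SE, adjusted p = 0.0035) and from 73.3, 128 and 182 to 390, 239 and 351 in WM793 (log2 1.41 ± 0.36 SE, adjusted p = 0.0066). A375 levels of COL24A1 went from 32.7, 15.7 and 6.86 to 536, 505 and 240 (log2 4.62 ± 0.51 SE, adjusted p = 9.6e-06). Its levels were low in 1205Lu, but no treated library overlapped DMSO in any line. COL3A1 rose in A375 from 3, 2.74 and 4.33 to 316, 373 and 105 (log2 5.76 ± 0.69 SE, adjusted p = 1.8e-05), the largest rise of any collagen gene in the arm without DOX. In WM793, where COL3A1 was already high, the levels of 1838, 2701 and 2930 in DMSO and 2156, 4048 and 3813 with BRAFi + MEKi overlapped and did not pass the test (log2 0.40 ± 0.29 SE, adjusted p = 0.31). COL1A1, the main chain of collagen I, rose in WM793 from 30, 73.5 and 15.3 to 207, 227 and 159 (log2 2.55 ± 0.50 SE, adjusted p = 0.0012). In A375 it fell from 248, 175 and 120 to 57.2, 49.4 and 114 (log2 -1.32 ± 0.36 SE, adjusted p = 0.01), a call lost without BRAFi + MEKi replicate 2 or DMSO replicate 1 (adjusted p = 0.055 and 0.059). Its partner COL1A2, which supplies the second chain of collagen I, never exceeded 38.5 in any library. COL11A2, a cartilage fibril chain, rose in A375 from 374, 498 and 433 to 4287, 4210 and 3785 (log2 3.24 ± 0.28 SE, adjusted p = 9.8e-07). In 1205Lu it went from 399, 413 and 440 to 736, 670 and 674 (log2 0.73 ± 0.22 SE, adjusted p = 0.024), but 5 of 6 fits that left out a library lost this call, without BRAFi + MEKi replicates 1, 2 or 3 or DMSO replicates 1 or 2 (adjusted p between 0.055 and 0.072). COL27A1, another fibrillar chain of cartilage, rose in 1205Lu (log2 1.69 ± 0.18 SE, adjusted p = 1.8e-05) and A375 (log2 1.20 ± 0.11 SE, adjusted p = 2.3e-06), while WM793 levels of 2536, 2405 and 3413 in DMSO and 1735, 2420 and 2534 with BRAFi + MEKi did not pass the test.

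Fibril-associated chains rose for 5 of 9 tested in 1205Lu, 2 of 10 in WM793 and 7 of 10 in A375, and 1, 3 and 0 fell. The shares over all genes were 16.5%, 20.4% and 20.5% up and 14.4%, 16.9% and 19% down, so that the rises in WM793 were at the level of all genes. Without A375 BRAFi + MEKi replicate 2 the rises of COL9A1, COL9A3 and COL22A1 were lost (adjusted p = 0.055, 0.061 and 0.14). The A375 libraries of COL22A1 overlapped between DMSO and BRAFi + MEKi. COL16A1, which links fibrils to cells and to other matrix proteins, stood at 2274, 1647 and 2150 in 1205Lu DMSO and 9043, 11991 and 11903 with BRAFi + MEKi (log2 2.44 ± 0.24 SE, adjusted p = 7.9e-06). It went from 143, 220 and 281 to 526, 851 and 586 in WM793 (log2 1.63 ± 0.29 SE, adjusted p = 0.00051) and from 698, 1030 and 429 to 6564, 6381 and 4657 in A375 (log2 3.10 ± 0.28 SE, adjusted p = 1.3e-06). Every treated library exceeded every DMSO library of its line. COL14A1, which binds the surface of collagen I fibrils, rose from 11.1, 16.4 and 22.2 to 95.3, 191 and 140 in 1205Lu (log2 3.02 ± 0.57 SE, adjusted p = 0.0013). The COL14A1 levels were 13.4, 7.05 and 10.7 and 79.6, 53 and 55.3 in WM793 (log2 2.50 ± 0.46 SE, adjusted p = 0.00074) and 45.9, 66.9 and 16.4 and 567, 573 and 278 in A375 (log2 3.56 ± 0.55 SE, adjusted p = 0.00017). This gene was low in DMSO and did not overlap with its treated levels in any line.

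Among the collagen IX chains COL9A2 and COL9A3 rose in 1205Lu and A375, and COL9A1 fell in WM793 and rose in A375. COL9A3 went from 12872, 11888 and 6882 to 21202, 40960 and 40124 in 1205Lu (log2 1.68 ± 0.38 SE, adjusted p = 0.0041). A375 levels of COL9A3 went from 10536, 8596 and 13535 to 26090, 27179 and 32341 (log2 1.41 ± 0.45 SE, adjusted p = 0.024), a call that 5 of 6 fits leaving out a library lost, without BRAFi + MEKi replicates 1, 2 or 3 or DMSO replicates 1 or 2 (adjusted p between 0.061 and 0.092). In WM793 its levels of 4661, 4826 and 11531 in DMSO and 5496, 14093 and 12659 with BRAFi + MEKi overlapped and did not pass the test. COL9A2 rose in 1205Lu from 283, 307 and 405 to 1251, 1294 and 1258 (log2 1.95 ± 0.20 SE, adjusted p = 1.3e-05) and in A375 from 364, 387 and 332 to 3352, 3433 and 2905 (log2 3.16 ± 0.27 SE, adjusted p = 8.5e-07), without overlap. COL9A1 fell in WM793 from 60, 23.3 and 53.8 to 2.98, 0 and 11.9 (log2 -3.54 ± 0.76 SE, adjusted p = 0.0024). In A375 COL9A1 was called up from 6.6, 13.9 and 8.47 to 20.6, 28.5 and 36.3 (log2 1.49 ± 0.46 SE, adjusted p = 0.02), which 3 of the 6 fits leaving out a library lost, without BRAFi + MEKi replicates 2 or 3 or DMSO replicate 1 (adjusted p between 0.055 and 0.072). The mean ratio of COL9A3 to COL9A2 per exon kb went from 26.2 to 7.7 in A375, from 27.7 to 23.4 in 1205Lu and from 137 to 85.7 in WM793. Of the COL9A3 exon bases, 3.2% overlap TCFL5.

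COL19A1, a vascular and neuromuscular basement zone collagen, fell in 1205Lu and WM793. It went from 1923, 1096 and 1585 to 743, 611 and 752 in 1205Lu (log2 -1.10 ± 0.22 SE, adjusted p = 0.0022) and from 9091, 8228 and 7927 to 3192, 1737 and 2361 in WM793 (log2 -1.83 ± 0.20 SE, adjusted p = 1e-05). The groups did not overlap in these lines. A375 levels were 1063, 380 and 422 in DMSO and 451, 443 and 181 with BRAFi + MEKi, which overlapped and did not pass the test (log2 -0.75 ± 0.39 SE, adjusted p = 0.15). COL22A1 rose in 1205Lu from 10734, 12078 and 11194 to 22995, 18712 and 15806 (log2 0.74 ± 0.15 SE, adjusted p = 0.0023). COL21A1 rose in A375 from 18.1, 16.3 and 19.8 to 98.2, 99.1 and 304 (log2 2.93 ± 0.61 SE, adjusted p = 0.0017), with replicate 3 the highest treated library. COL12A1, which binds collagen I and stiffens tissue, fell in WM793 from 6167, 7310 and 6019 to 4457, 3537 and 4826 (log2 -0.61 ± 0.18 SE, adjusted p = 0.015), a call lost in 2 fits, without BRAFi + MEKi replicate 2 or DMSO replicate 2 (adjusted p = 0.082 and 0.066).

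Basement membrane chains rose for 1 of 3 tested (1205Lu), 3 of 6 (WM793) and 2 of 6 (A375), and 1, 0 and 2 fell, beside 16.5%, 20.4% and 20.5% of all genes up and 14.4%, 16.9% and 19% down. COL4A1 and COL4A2, whose products form the common α1 and α2 network of basement membranes, rose in WM793 and fell in A375. COL4A1 stood at 8020, 11073 and 10364 in WM793 DMSO and 27875, 48253 and 43286 with BRAFi + MEKi (log2 1.99 ± 0.23 SE, adjusted p = 1.8e-05), and COL4A2 at 14518, 20871 and 19195 and 30810, 55580 and 46515 (log2 1.26 ± 0.23 SE, adjusted p = 0.00062). In A375, COL4A1 went from 8305, 8316 and 9067 to 2885, 3407 and 2637 (log2 -1.53 ± 0.11 SE, adjusted p = 2.5e-07) and COL4A2 from 19957, 20503 and 21680 to 5422, 5897 and 4846 (log2 -1.95 ± 0.11 SE, adjusted p = 3.1e-08). All libraries of a line moved the same way and the groups did not overlap. In 1205Lu, COL4A1 rose from 4778, 5058 and 6440 to 9085, 8168 and 9477 (log2 0.73 ± 0.17 SE, adjusted p = 0.0048), while COL4A2 levels of 16658, 21523 and 20991 and 21704, 26349 and 24247 did not pass the test (log2 0.29 ± 0.18 SE, adjusted p = 0.25). The COL4A2 to COL4A1 ratio per exon kb was therefore lower with BRAFi + MEKi in each line, 2.06 after 2.77 in 1205Lu, 0.847 after 1.41 in WM793 and 1.38 after 1.84 in A375. These 2 genes share the 126-base stretch printed for them, and the difference between their changes was not tested.

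In the other head-to-head pairs, COL4A5 and COL4A4 were called without their neighbours, but COL4A3 was too low to be tested in 1205Lu (highest library 1.21). COL4A5, a chain of the kidney and muscle basement membrane network, rose from 1626, 1435 and 1186 to 2033, 2603 and 2637 in WM793 (log2 0.78 ± 0.17 SE, adjusted p = 0.0024) and from 595, 527 and 593 to 2602, 2415 and 1857 in A375 (log2 1.99 ± 0.18 SE, adjusted p = 1.5e-06). Its neighbour COL4A6 stayed between 0.69 and 23.2 in all WM793 and A375 libraries and was not called, so that COL4A5 was 224 times COL4A6 per exon kb in WM793 DMSO (359 times without replicate 3) and 81.4 times in A375 DMSO. COL4A4 rose in A375 from 12.5, 13.9 and 12 to 50, 82.6 and 60.9 (log2 2.22 ± 0.44 SE, adjusted p = 0.0012). In 1205Lu it fell from 31.3, 19.5 and 11.3 to 10.7, 3.28 and 2.7 (log2 -1.82 ± 0.61 SE, adjusted p = 0.036), a call lost in 4 of 6 fits, without BRAFi + MEKi replicates 2 or 3 or DMSO replicates 1 or 2 (adjusted p between 0.084 and 0.13). COL4A3, its neighbour, never exceeded 36.3, and its levels in A375 of 1.1, 1.03 and 9.9 and 0.849, 8.76 and 0.505 overlapped between DMSO and BRAFi + MEKi.

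Among the beaded filament chains, COL6A3 fell in 1205Lu and A375, where COL6A1 and COL6A2 were not called. COL6A3 went from 94, 93.7 and 104 to 9.8, 5.19 and 5.36 in 1205Lu (log2 -3.70 ± 0.85 SE, adjusted p = 0.0045). A375 levels of COL6A3 went from 92.4, 135 and 583 to 33.5, 6.99 and 7.31 (log2 -3.89 ± 0.93 SE, adjusted p = 0.0044), with DMSO replicate 3 well above the other DMSO libraries. The groups did not overlap in either line. COL6A1 stood at 17153, 12947 and 12063 and 13641, 16834 and 16805 in 1205Lu and at 4052, 3961 and 8214 and 5286, 5056 and 7282 in A375, overlapping and not called. COL6A2 levels were 26757, 18658 and 17563 and 22671, 24250 and 22494 in 1205Lu and 2859, 2624 and 5361 and 3134, 2971 and 4766 in A375, also overlapping. The mean COL6A2 to COL6A3 ratio per exon kb went from 873 to 13771 in 1205Lu and from 53.8 to 918 in A375. Single libraries moved the A375 ratios, to 97.1 without DMSO replicate 3 and to 2183 and 609 without BRAFi + MEKi replicates 1 and 3. In WM793, COL6A1 was called up from 7400, 7832 and 10170 to 8821, 15524 and 15426 (log2 0.61 ± 0.20 SE, adjusted p = 0.026) and COL6A2 from 9098, 10922 and 14592 to 11628, 21996 and 20903 (log2 0.63 ± 0.22 SE, adjusted p = 0.038). In both, replicate 1 with BRAFi + MEKi lay among the DMSO libraries, and 4 of 6 fits leaving out a library lost the call. The COL6A1 call was lost without BRAFi + MEKi replicates 2 or 3 or DMSO replicates 1 or 2 (adjusted p between 0.085 and 0.13). The COL6A2 call was lost without BRAFi + MEKi replicates 2 or 3 or DMSO replicates 1 or 2 (adjusted p between 0.1 and 0.18).

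COL7A1, the anchoring fibril collagen, rose in A375 from 233, 214 and 316 to 1857, 2259 and 1595 (log2 2.91 ± 0.18 SE, adjusted p = 6.4e-08) and in WM793 from 66.8, 72.4 and 238 to 399, 404 and 356 (log2 1.87 ± 0.39 SE, adjusted p = 0.002). In 1205Lu its levels of 243, 236 and 491 and 784, 246 and 522 overlapped (log2 0.61 ± 0.41 SE, adjusted p = 0.28). COL8A1, a short-chain collagen of vessel walls and the corneal endothelium, rose in WM793 from 4900, 9303 and 13105 to 32579, 48849 and 54463 (log2 2.39 ± 0.33 SE, adjusted p = 6.5e-05) and in A375 from 411, 494 and 329 to 4286, 4279 and 3696 (log2 3.33 ± 0.16 SE, adjusted p = 1e-08). In 1205Lu its levels of 657, 125 and 171 and 354, 162 and 194 overlapped, with replicate 1 the highest of each group. Its partner COL8A2 fell in A375 from 117, 103 and 137 to 18.7, 17.8 and 59 (log2 -2.08 ± 0.42 SE, adjusted p = 0.0014), so that both chains moved apart without overlap between groups. The COL8A1 to COL8A2 ratio per exon kb went from 1.71 to 63.6 in A375 (117 without BRAFi + MEKi replicate 3) and from 45.7 to 208 in WM793, and from 2.25 to 1.32 in 1205Lu, where neither chain was called.

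COL13A1, a transmembrane collagen of cell adhesion sites and the neuromuscular junction, showed the largest falls of any collagen gene in 1205Lu and A375 in the arm without DOX. It went from 251, 509 and 348 to 4.93, 8.38 and 9.57 in 1205Lu (log2 -5.40 ± 0.59 SE, adjusted p = 2.1e-05) and from 461, 551 and 1040 to 8.05, 4.75 and 14.9 in A375 (log2 -6.10 ± 0.39 SE, adjusted p = 7.5e-08). In WM793 it went from 28.9, 109 and 80.1 to 13, 17 and 17.2 (log2 -1.96 ± 0.60 SE, adjusted p = 0.02), a call lost in 4 of 6 fits, without BRAFi + MEKi replicates 1 or 2 or DMSO replicates 2 or 3 (adjusted p between 0.051 and 0.089). Treated libraries lay below all DMSO libraries in each line. COL25A1, a brain transmembrane collagen found in amyloid plaques, fell in WM793 from 225, 292 and 708 to 189, 117 and 140 (log2 -1.30 ± 0.36 SE, adjusted p = 0.011), a call lost without BRAFi + MEKi replicate 2 (adjusted p = 0.058). In A375, COL25A1 went from 4.66, 0 and 0 to 6.48, 3.25 and 19.6, with overlap and a call (log2 2.29 ± 0.86 SE, adjusted p = 0.048) lost in 4 of 6 fits, without BRAFi + MEKi replicates 1 or 3 or DMSO replicates 2 or 3 (adjusted p between 0.094 and 0.18).

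The multiplexins, whose C-terminal ends release endostatin and related fragments, are COL18A1, which rose in all 3 lines, and COL15A1, which fell in WM793 and rose in A375. COL18A1 rose in 1205Lu from 8764, 6215 and 5770 to 33033, 38718 and 39370 (log2 2.44 ± 0.17 SE, adjusted p = 4.7e-07) and in WM793 from 9759, 11924 and 19327 to 21106, 28265 and 29156 (log2 0.98 ± 0.24 SE, adjusted p = 0.0059). In A375 it rose from 1040, 861 and 872 to 1597, 1674 and 2206 (log2 0.97 ± 0.18 SE, adjusted p = 0.00066). No treated library overlapped DMSO, but 18.5% of COL18A1 exon bases overlap SLC19A1, whose reads an unstranded kit cannot tell apart. COL15A1 fell in WM793 from 5376, 5531 and 5445 to 736, 650 and 859 (log2 -2.87 ± 0.22 SE, adjusted p = 5.4e-07) and rose, at low levels, in A375 from 17.9, 29.5 and 27.5 to 47.9, 60.2 and 67.3 (log2 1.21 ± 0.34 SE, adjusted p = 0.011). In 1205Lu its levels of 1028, 1077 and 1261 and 1568, 680 and 668 overlapped, with replicate 1 above DMSO and the other 2 below (log2 -0.32 ± 0.31 SE, adjusted p = 0.47). Of the remaining types, COL26A1 went from 1.16, 3.33 and 0 to 35.5, 17.4 and 12.9 in 1205Lu (log2 3.32 ± 0.77 SE, adjusted p = 0.005). COL28A1 went from 14.5, 3.34 and 0 to 111, 108 and 102 in A375 (log2 4.73 ± 0.79 SE, adjusted p = 0.00032), and it was listed at 0 in all 3 DMSO libraries of 1205Lu and at 5.89, 1.72 and 17.5 with BRAFi + MEKi, a call lost in 5 of 6 fits, without BRAFi + MEKi replicates 1 or 3 or DMSO replicates 1, 2 or 3 (adjusted p between 0.058 and 0.11).

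The make-up of the collagen RNA, taken as the share of each type in the summed level per exon kb of all members, is given as group means. In 1205Lu the share of beaded filament chains was 47.1% ± 3.68 (SD, n = 3) in DMSO and 26.7% ± 1.88 with BRAFi + MEKi, and that of multiplexins 7.19% ± 0.365 and 16.8% ± 0.906. In WM793 the short-chain network share was 7.22% ± 1.86 in DMSO and 18.1% ± 1.82 with BRAFi + MEKi, and the fibril-associated share 24.1% ± 1.72 and 12.9% ± 0.296. In A375 the fibrillar share was 34.6% ± 10.7 in DMSO and 54.5% ± 6.19 with BRAFi + MEKi, and the basement membrane share 17.7% ± 0.337 and 2.78% ± 0.211. The types named for each line are a selection, and the shares of the other types are not given. None of these shares was tested.

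The response to BRAFi + MEKi itself was compared between lines. Between 1205Lu and WM793 the response differed for 9 of 41 members, where 14.5% of all genes differed. Between 1205Lu and A375 it differed for 13, where 14.7% of all genes differed. WM793 and A375 differed in 20 members, where 22.8% of all genes differed. COL4A1 differed in all 3 pairs, with a log2 response in 1205Lu minus that in WM793 of -1.27, in 1205Lu minus A375 of 2.26 and in WM793 minus A375 of 3.53. COL15A1 and COL4A2 also differed in all 3 pairs, although that of COL4A2 for 1205Lu against WM793 was lost without WM793 BRAFi + MEKi replicate 2 or WM793 DMSO replicate 1 (adjusted p = 0.061 and 0.055). The response of COL8A1 differed by -2.51 for 1205Lu against WM793 and -3.44 for 1205Lu against A375. The fall of COL13A1 was smaller in WM793, with a difference of -3.45 for 1205Lu against WM793 and 4.14 for WM793 against A375. For COL5A2 and COL14A1, which rose in every line, no difference passed the test in any pair. The COL5A2 estimates, in the same order of pairs, were -0.56 ± 0.45 SE, 0.18 ± 0.45 SE and 0.74 ± 0.45 SE. Those of COL14A1 were 0.52 ± 0.79 SE, -0.54 ± 0.79 SE and -1.06 ± 0.79 SE, so differences of this size remain possible.

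With DOX in both groups, 13 of the tested members rose and 5 fell in 1205Lu (35.1% and 13.5%, beside 15.1% and 13.2% of all genes). The falls of COL6A3 and COL25A1 were lost without BRAFi + MEKi + DOX replicates 2 or 3 (adjusted p between 0.06 and 0.089). In WM793, 14 rose and 7 fell (35.9% and 17.9%, against 16.7% and 15.1% of all genes). Without its BRAFi + MEKi + DOX replicate 2 the falls of COL1A2, COL2A1 and COL13A1 were lost (adjusted p = 0.057, 0.1 and 0.099). In A375, 23 rose and 7 fell (56.1% and 17.1%, where 16.2% and 14.8% of all genes did). Leaving out A375 DMSO + DOX replicate 2 lost the rises of COL4A4, COL5A3, COL15A1, COL20A1 and COL22A1 (adjusted p between 0.051 and 0.087). The fall of COL1A1 was lost there too (adjusted p = 0.062). Median log2 changes of the members were 0.58, 0.55 and 1.28, beside 0.12, 0.12 and 0.05 over all genes. The arms shared 15 calls of one direction in 1205Lu (78.9% of 19 without DOX and 83.3% of 18 with DOX), 17 in WM793 (81% of 21 and 81% of 21) and 25 in A375 (92.6% of 27 and 83.3% of 30). The same share over all called genes is not given, so this overlap is not read as a trait of the members. Called members did not overlap between groups in 16 of 18, 20 of 21 and 30 of 30 cases, and all called genes in 96.7%, 98% and 95.3%. Fibrillar chains rose for 5, 5 and 8 of 11 and fell for 0, 2 and 2. Both WM793 falls (COL1A2, COL2A1) were lost without BRAFi + MEKi + DOX replicate 1, 2 or 3 (adjusted p 0.057 to 0.12). Both A375 falls (COL1A1, COL1A2) were lost without BRAFi + MEKi + DOX replicate 1 or DMSO + DOX replicate 3 (adjusted p 0.055 to 0.17). Fibril-associated chains rose for 4 of 9, 3 of 10 and 8 of 10 and fell for 1, 2 and 0, and basement membrane chains rose for 1 of 3, 3 of 6 and 2 of 6 and fell for 0, 0 and 2. Without A375 BRAFi + MEKi + DOX replicate 1 the rises of COL9A1, COL20A1 and COL22A1 were lost (adjusted p between 0.05 and 0.079).

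With DOX the largest called rises in 1205Lu were those of COL26A1 and COL14A1 and the largest falls those of COL13A1 and COL6A3. COL26A1 stood at 6.15, 0 and 0.994 in DMSO + DOX and 77.9, 30.8 and 36.7 in BRAFi + MEKi + DOX (log2 4.23 ± 0.77 SE, adjusted p = 0.0012), and COL14A1 at 13.7, 15.3 and 16.5 and 88, 512 and 501 (log2 4.14 ± 0.57 SE, adjusted p = 0.00016). COL9A3 went from 3913, 4955 and 6378 to 16483, 49470 and 37591 (log2 2.65 ± 0.38 SE, adjusted p = 0.00019) and COL5A1 from 1460, 2105 and 1695 to 4924, 9450 and 9040 (log2 2.11 ± 0.23 SE, adjusted p = 2.2e-05). In each of these 4 genes replicate 1 with BRAFi + MEKi + DOX stood apart from replicates 2 and 3, yet none overlapped DMSO + DOX. COL13A1 fell from 387, 693 and 551 to 21.8, 1.95 and 8.38 (log2 -5.95 ± 0.59 SE, adjusted p = 1.2e-05) and COL19A1 from 1889, 1484 and 1543 to 575, 537 and 353 (log2 -1.77 ± 0.22 SE, adjusted p = 7.9e-05). COL6A3 went from 132, 207 and 237 to 133, 5.35 and 7.19 (log2 -3.29 ± 0.85 SE, adjusted p = 0.01), where replicate 1 of the treated group lay among the DMSO + DOX libraries. Without that library the change in COL6A3 was log2 -4.70 (adjusted p = 2.1e-05), and the call was lost without BRAFi + MEKi + DOX replicates 2 or 3 (adjusted p = 0.068 and 0.06). COL25A1 went from 290, 52.9 and 189 to 68.1, 13.5 and 5.56 (log2 -2.94 ± 0.83 SE, adjusted p = 0.017), with overlap, and was lost in 4 fits, without BRAFi + MEKi + DOX replicates 2 or 3 or DMSO + DOX replicates 1 or 3 (adjusted p between 0.066 and 0.089). COL15A1, not called in 1205Lu without DOX, fell from 982, 1053 and 966 to 474, 291 and 222 with it (log2 -1.67 ± 0.31 SE, adjusted p = 0.0013).

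In WM793 with DOX, COL5A3 rose from 874, 3280 and 1872 to 5283, 19989 and 15122 (log2 2.74 ± 0.57 SE, adjusted p = 0.0021), COL1A1 from 27.7, 47.9 and 22.7 to 136, 319 and 209 (log2 2.70 ± 0.50 SE, adjusted p = 0.00098) and COL5A1 from 1396, 1699 and 1465 to 5664, 11340 and 8952 (log2 2.46 ± 0.30 SE, adjusted p = 3.5e-05). COL28A1 rose at low levels, from 0, 0 and 0.921 to 9.68, 8.19 and 12.8 (log2 3.16 ± 0.64 SE, adjusted p = 0.0019). None of these groups overlapped. COL9A1 fell from 30.5, 48.3 and 41 to 4.33, 4.08 and 3.02 (log2 -3.08 ± 0.76 SE, adjusted p = 0.0071), a call lost with a pseudocount of 0.1 (adjusted p = 0.07), and COL15A1 from 1556, 2905 and 3554 to 593, 581 and 607 (log2 -2.09 ± 0.22 SE, adjusted p = 1.2e-05). COL1A2 levels of 38.5, 13.3 and 0.936 and 0, 1.44 and 0.933 overlapped, and 5 of 6 fits leaving out a library lost the call (log2 -2.62 ± 0.87 SE, adjusted p = 0.035), without BRAFi + MEKi + DOX replicates 1, 2 or 3 or DMSO + DOX replicates 1 or 2 (adjusted p between 0.057 and 0.16). COL2A1 stood at 11.1, 1.01 and 2.97 with DMSO + DOX and was listed at 0 in all 3 BRAFi + MEKi + DOX libraries, a call (adjusted p = 0.046) also lost in 5 of 6 fits, without BRAFi + MEKi + DOX replicates 1, 2 or 3 or DMSO + DOX replicates 1 or 3 (adjusted p between 0.086 and 0.19).

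In A375 with DOX, COL3A1 rose from 0.891, 0 and 8.24 to 237, 219 and 149 (log2 6.26 ± 0.69 SE, adjusted p = 1.8e-05), COL28A1 from 0.7, 0 and 3.55 to 113, 87.9 and 76.8 (log2 5.55 ± 0.79 SE, adjusted p = 0.00015), COL24A1 from 18.8, 27.6 and 9.59 to 408, 379 and 232 (log2 4.19 ± 0.51 SE, adjusted p = 4.3e-05) and COL14A1 from 9.31, 4.6 and 24.8 to 226, 217 and 162 (log2 4.13 ± 0.55 SE, adjusted p = 8.8e-05). COL6A3 fell from 89.8, 92.6 and 1262 to 3.74, 3.08 and 4.03 (log2 -5.58 ± 0.93 SE, adjusted p = 0.00049), COL13A1 from 694, 733 and 1224 to 18.9, 23.9 and 15.4 (log2 -5.41 ± 0.39 SE, adjusted p = 4.9e-07) and COL4A2 from 20021, 22901 and 20090 to 5542, 6051 and 4618 (log2 -1.96 ± 0.11 SE, adjusted p = 6.6e-08). Groups did not overlap in any of these genes. COL1A2, at 1.07, 1.49 and 13 with DMSO + DOX, was listed at 0 in all 3 BRAFi + MEKi + DOX libraries, a call (adjusted p = 0.043) that 4 of 6 fits lost, without BRAFi + MEKi + DOX replicates 1, 2 or 3 or DMSO + DOX replicate 3 (adjusted p between 0.086 and 0.17). COL11A1 and COL12A1 were called with DOX and not without it. COL11A1 went from 3.45, 7.62 and 3.04 to 100, 36.1 and 36.8 (log2 3.28 ± 0.54 SE, adjusted p = 0.00041), and COL12A1 from 3767, 3057 and 4015 to 8610, 8662 and 19778 (log2 1.66 ± 0.30 SE, adjusted p = 0.00096). The interaction of DOX and BRAFi + MEKi did not pass the test for either gene (adjusted p = 0.21 and 0.61).

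DOX itself, and with it NR2F1 overexpression, was compared within each inhibitor arm. Under BRAFi + MEKi, 2 of 37 members (5.41%) were called in 1205Lu, COL18A1 and COL22A1, both lower with DOX, where 0.334% of all genes were called. COL18A1 stood at 33033, 38718 and 39370 with BRAFi + MEKi and 17945, 18318 and 14263 with BRAFi + MEKi + DOX (log2 -1.14 ± 0.17 SE, adjusted p = 0.014). COL22A1 stood at 22995, 18712 and 15806 and 12139, 9497 and 10306 (log2 -0.84 ± 0.15 SE, adjusted p = 0.035). All libraries with DOX lay below all without it in both genes. The COL18A1 call was lost in 4 of 6 fits leaving out a library, without BRAFi + MEKi + DOX replicates 2 or 3 or BRAFi + MEKi replicates 2 or 3 (adjusted p between 0.055 and 0.13). The COL22A1 call was lost in 5, without BRAFi + MEKi + DOX replicates 2 or 3 or BRAFi + MEKi replicates 1, 2 or 3 (adjusted p between 0.06 and 0.21). Both calls were lost when the fit held only the 6 libraries compared. COL15A1, at 1568, 680 and 668 and 474, 291 and 222, and COL5A3, at 2713, 6531 and 6422 and 1298, 2539 and 2378, missed the threshold (log2 -1.51 ± 0.31 SE, adjusted p = 0.061, and log2 -1.29 ± 0.34 SE, adjusted p = 0.15). With the replicate number as a block, where same-number correlations in this comparison were 0.274, 0.109 and 0.113, all 4 genes were called, with adjusted p of 0.0036 for COL18A1, 0.0095 for COL22A1, 0.017 for COL15A1 and 0.0063 for COL5A3. In WM793 and A375, 0 members were called under BRAFi + MEKi by limma, where 0.204% and 1.52% of all genes were called. COL5A2, the leading A375 chain, stood at 98150, 98243 and 71291 with BRAFi + MEKi and 59265, 52384 and 40198 with BRAFi + MEKi + DOX, without overlap, and did not pass the test (log2 -0.82 ± 0.27 SE, adjusted p = 0.22). COL12A1 in A375, at 4816, 4891 and 10061 and 8610, 8662 and 19778, overlapped and did not pass it either (log2 0.88 ± 0.30 SE, adjusted p = 0.26). At an unadjusted p under 0.05 the counts were 12, 2 and 9 in 1205Lu, WM793 and A375. No share of all genes at that level is given, here or with the unadjusted counts that follow.

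**Figure D5:**
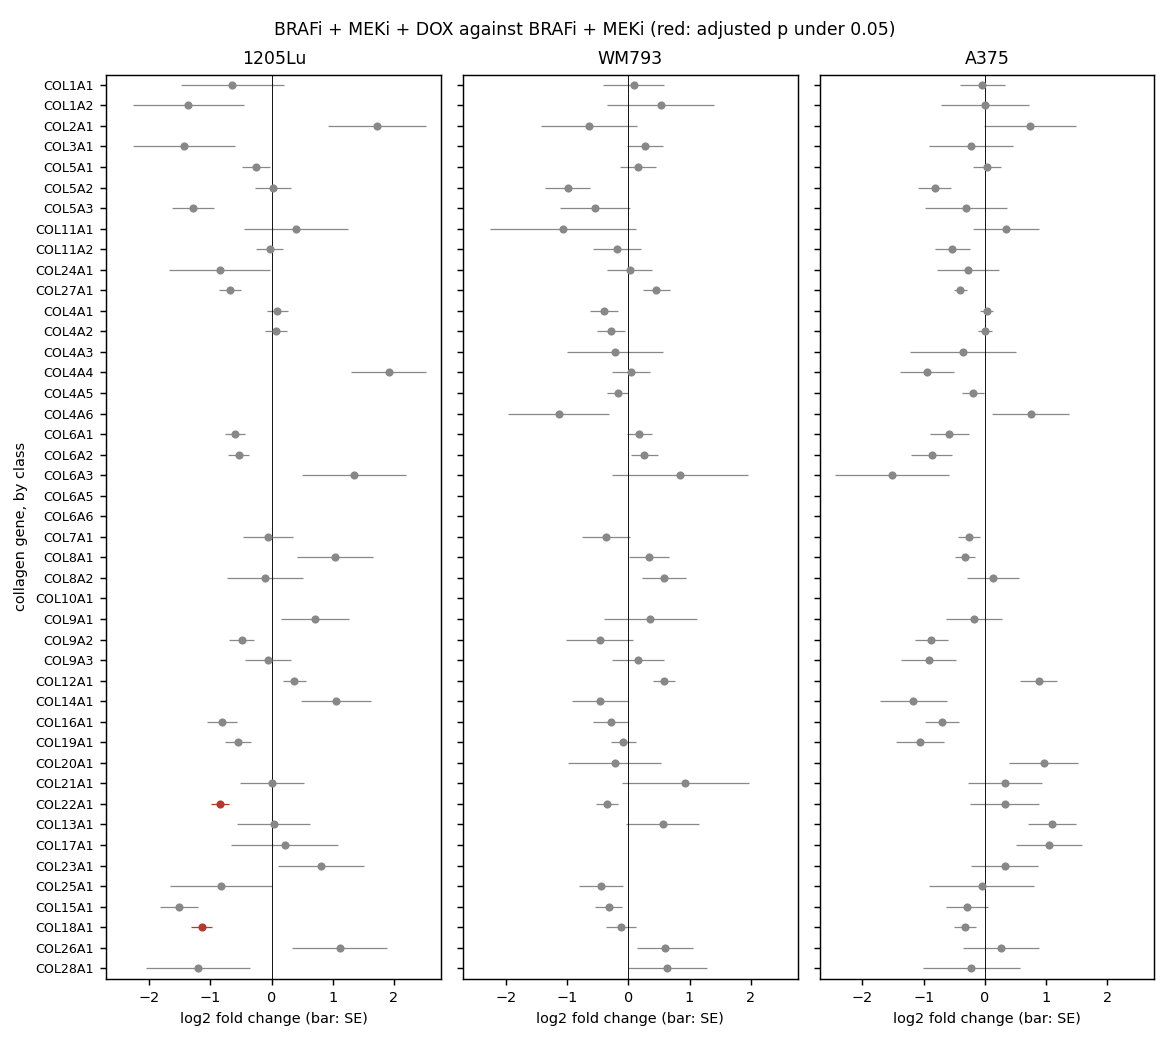
Log2 fold change with SE of each tested collagen gene in BRAFi + MEKi + DOX against BRAFi + MEKi in the 3 lines, with red points for an adjusted p under 0.05. The red points are COL18A1 and COL22A1 in 1205Lu, and there are none in WM793 or A375.

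Under DMSO, 2 members were called in WM793, COL15A1 and COL22A1, both lower with DOX, where 0.512% of all genes were called. COL15A1 stood at 5376, 5531 and 5445 in DMSO and 1556, 2905 and 3554 in DMSO + DOX (log2 -1.11 ± 0.22 SE, adjusted p = 0.049), and COL22A1 at 4015, 5196 and 4859 and 1645, 2667 and 2971 (log2 -0.99 ± 0.18 SE, adjusted p = 0.027). Neither overlapped between the groups, but each call was lost in 5 of 6 fits leaving out a library. For COL15A1 it was lost without DMSO + DOX replicates 1 or 2 or DMSO replicates 1, 2 or 3 (adjusted p between 0.057 and 0.17). For COL22A1 it was lost without DMSO + DOX replicates 1 or 2 or DMSO replicates 1, 2 or 3 (adjusted p between 0.052 and 0.13). No member was called under DMSO by limma in 1205Lu or A375, where 0.00903% and 0.0492% of all genes were called, and the counts at an unadjusted p under 0.05 were 9, 5 and 10 in 1205Lu, WM793 and A375. The interaction of DOX and BRAFi + MEKi was called for 0 members by limma in each line, against 0%, 0% and 0.46% of all genes, with 6, 4 and 3 members at an unadjusted p under 0.05. The DOX effect under BRAFi + MEKi differed between no pair of lines for any member by limma, where 0.138% (1205Lu against WM793), 0.179% (1205Lu against A375) and 0.881% (WM793 against A375) of all genes differed, and 7, 5 and 4 members had an unadjusted p under 0.05. With the replicate block, for which all same-number correlations exceeded 0.1 in 1205Lu and WM793, COL27A1 differed between these lines (log2 -1.14 ± 0.20 SE, adjusted p = 0.0082, and 0.086 without the block). Its levels were 6303, 4602 and 5983 with BRAFi + MEKi and 2849, 3722 and 3977 with BRAFi + MEKi + DOX in 1205Lu, without overlap, and 1735, 2420 and 2534 and 2126, 3335 and 3890 in WM793, with overlap. COL22A1 was also lower without overlap with DOX in 1205Lu under DMSO, at 8836, 8628 and 8626 after 10734, 12078 and 11194 (log2 -0.38 ± 0.15 SE, adjusted p = 0.68), and in WM793 under BRAFi + MEKi, at 4547, 4156 and 4278 after 5346, 5748 and 5504 (log2 -0.35 ± 0.18 SE, adjusted p = 0.65), but neither passed the test. In A375 the COL22A1 groups overlapped, with a DOX difference of log2 0.32 under BRAFi + MEKi and -0.04 under DMSO.

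Genes that fold, process and bind collagen were counted from lists written by hand. For the genes of these lists, fits that left out a library are not given. Of 22 genes for collagen folding, hydroxylation and secretion, 1 rose and 7 fell under BRAFi + MEKi in 1205Lu, 6 rose and 5 fell in WM793, and 1 rose and 7 fell in A375. Over all genes tested, 16.5% rose and 14.4% fell (1205Lu), 20.4% and 16.9% (WM793) and 20.5% and 19% (A375). CREB3L1, a transcription factor that drives collagen secretion genes, fell in 1205Lu (log2 -2.67 ± 0.93 SE, adjusted p = 0.042) and A375 (log2 -2.15 ± 0.45 SE, adjusted p = 0.0017) and rose in WM793 (log2 3.09 ± 0.58 SE, adjusted p = 0.00088). MIA3, which loads collagen into transport vesicles, rose in 1205Lu (log2 1.46 ± 0.16 SE, adjusted p = 2.1e-05), where COLGALT1, a collagen galactosyltransferase, fell (log2 -1.34 ± 0.17 SE, adjusted p = 7.5e-05). The prolyl 4-hydroxylase subunits P4HA3 and P4HA2 rose in WM793 (log2 1.64 ± 0.41 SE, adjusted p = 0.0061, and log2 1.25 ± 0.13 SE, adjusted p = 6.1e-06). P4HA2 fell in A375 (log2 -0.54 ± 0.13 SE, adjusted p = 0.0047). MIA3 also rose in WM793 (log2 0.33), and COLGALT1 also fell in WM793 (log2 -0.61) and A375 (log2 -0.66). In A375, P3H2, a prolyl 3-hydroxylase, rose (log2 2.42 ± 0.29 SE, adjusted p = 1.8e-05) and P4HA1 fell (log2 -0.94 ± 0.18 SE, adjusted p = 0.00078).

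Of the genes that trim or crosslink secreted collagen, 3 of 12 tested rose and 3 fell in 1205Lu, 5 of 12 rose and 4 fell in WM793, and 5 of 13 rose and 5 fell in A375, beside the same shares of all genes (16.5% and 14.4%, 20.4% and 16.9%, 20.5% and 19%). LOX, the founding lysyl oxidase, fell in 1205Lu (log2 -2.24 ± 0.29 SE, adjusted p = 7.9e-05) and A375 (log2 -1.55 ± 0.57 SE, adjusted p = 0.043) and rose in WM793 (log2 0.53 ± 0.14 SE, adjusted p = 0.0078). LOX was listed at 0 in all 3 A375 libraries with BRAFi + MEKi + DOX. Its relative LOXL3 rose in every line (log2 1.85, 1.67 and 1.10 for 1205Lu, WM793 and A375). LOXL4 fell in 1205Lu (log2 -1.30 ± 0.33 SE, adjusted p = 0.0082), WM793 (log2 -2.80 ± 0.26 SE, adjusted p = 2.5e-06) and A375 (log2 -2.66 ± 0.13 SE, adjusted p = 1.2e-08), and LOXL2 fell in A375 (log2 -2.80 ± 0.12 SE, adjusted p = 3.7e-09) and rose in WM793 (log2 1.14 ± 0.36 SE, adjusted p = 0.021). ADAMTS2, a procollagen N-proteinase, was called up in 1205Lu (log2 1.61 ± 0.57 SE, adjusted p = 0.047) and down in A375 (log2 -3.72 ± 0.61 SE, adjusted p = 0.00026). In WM793 its relative ADAMTS14 rose (log2 2.51 ± 0.39 SE, adjusted p = 0.00021) and ADAMTS3 fell (log2 -1.73 ± 0.15 SE, adjusted p = 1e-06). ADAMTS14 also rose in A375 (log2 1.93) and ADAMTS3 also fell in 1205Lu (log2 -1.01).

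Of 9 collagen receptors tested per line, 2, 2 and 4 rose and 1, 1 and 3 fell in 1205Lu, WM793 and A375, beside the shares of all genes given for the enzymes. The integrin subunit ITGA10 fell in 1205Lu (log2 -2.81 ± 0.55 SE, adjusted p = 0.0016), WM793 (log2 -4.58 ± 0.42 SE, adjusted p = 2.3e-06) and A375 (log2 -1.84 ± 0.28 SE, adjusted p = 0.00015). ITGA1 and MRC2, an uptake receptor for collagen fragments, rose in 1205Lu (log2 2.08 ± 0.26 SE, adjusted p = 6.3e-05, and log2 0.75 ± 0.13 SE, adjusted p = 0.00089). In A375, ITGA1 fell (log2 -0.55 ± 0.20 SE, adjusted p = 0.045) and MRC2 rose (log2 0.92 ± 0.13 SE, adjusted p = 7.5e-05). ITGA2 rose in WM793 (log2 1.59 ± 0.19 SE, adjusted p = 2.4e-05) and A375 (log2 3.01 ± 0.18 SE, adjusted p = 3.3e-08), as did ITGA11 in A375 (log2 2.73 ± 0.43 SE, adjusted p = 0.00021). ADGRG1 rose in WM793 (log2 1.24 ± 0.21 SE, adjusted p = 0.00037) and fell in A375 (log2 -0.72 ± 0.18 SE, adjusted p = 0.0067). In the 3 lists, DOX was followed by 0 calls under BRAFi + MEKi in each line by limma (0.334%, 0.204% and 1.52% of all genes), with 11, 7 and 13 genes at an unadjusted p under 0.05 in 1205Lu, WM793 and A375. Under DMSO it was followed by 1 call, a lower ITGA1 in WM793 (0.00903%, 0.512% and 0.0492% of all genes), with 3, 11 and 6 genes at an unadjusted p under 0.05.

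The inhibitor comparison with DOX gave other counts for these lists. Of the folding genes, 4 rose and 3 fell in 1205Lu, 6 and 4 in WM793 and 1 and 5 in A375, beside 15.1% and 13.2%, 16.7% and 15.1%, and 16.2% and 14.8% of all genes. CREB3L1 was called in neither 1205Lu (log2 0.37 ± 0.93 SE, adjusted p = 0.8) nor A375 (log2 -0.18 ± 0.45 SE, adjusted p = 0.8) and rose in WM793 (log2 2.24 ± 0.58 SE, adjusted p = 0.0091). Of the genes that trim or crosslink collagen, 3 rose and 3 fell, 4 rose and 4 fell, and 4 rose and 4 fell in the 3 lines, and of the receptors 2 rose and 3 fell, 2 rose and 1 fell, and 3 rose and 3 fell. The difference between the arms was not read from these counts.

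Markers of other cell types and of the melanocyte lineage moved in part with the inhibitors. Of the fibroblast markers, 0 of 6 tested rose and 1 fell under BRAFi + MEKi in 1205Lu, 1 of 5 rose and 2 fell in WM793, and 0 of 5 rose and 0 fell in A375 by limma, with 0 at an unadjusted p under 0.05. Their summed level was between 5369 and 7719 in 1205Lu DMSO and between 1840 and 3124 with BRAFi + MEKi, between 7516 and 8652 and then 6122 and 6885 in WM793, and between 392 and 968 and then 911 and 1182 in A375. Of the melanocyte lineage markers, 4 of 6, 4 of 6 and 5 of 7 tested rose and none fell, where 16.5%, 20.4% and 20.5% of all genes rose and 14.4%, 16.9% and 19% fell. Their summed level went from between 17058 and 24131 to between 52195 and 60030 in 1205Lu, from between 22173 and 28477 to between 43938 and 53063 in WM793, and from between 17167 and 19576 to between 27748 and 44259 in A375. Of the immune markers, CD68 fell in 1205Lu, with a summed level of the list between 1919 and 2410 in DMSO and between 353 and 582 with BRAFi + MEKi, and rose in WM793 (between 425 and 514, then 517 and 989). PTPRC rose in A375 (list between 3627 and 4427, then 3207 and 6457), and CD3E was at 0 in all DMSO libraries of each line. Of the endothelial markers, VWF rose in 1205Lu (list between 3.49 and 11.4, then 42.8 and 74.5) and CDH5 fell in A375 (between 43.9 and 48.8, then 36.6 and 52.9). Of the keratinocyte markers 0 were called by limma in each line without DOX, and 0 had an unadjusted p under 0.05. With DOX in both groups, A375 had calls in several lists. The keratinocyte markers KRT5 and KRT14 rose, KRT14 from 69.7, 74.1 and 57.1 to 214, 201 and 143 and KRT5 from 0, 0 and 0.733 to 7.96, 7.89 and 33.2, with a summed level of the list between 444 and 569 in DMSO + DOX and between 636 and 977 with BRAFi + MEKi + DOX. The fibroblast marker LUM rose, from 236, 250 and 43.4 to 906, 815 and 555, and PDPN fell (list between 287 and 784, then 793 and 1241). VWF rose and PECAM1 and CDH5 fell (endothelial list between 19.5 and 51, then 31.7 and 72.9), and PTPRC rose (immune list between 4385 and 4847, then 2122 and 3665). In 1205Lu and WM793 with DOX the calls among these 4 lists were PDGFRA down, VWF up and CD68 down, and THY1 and CD68 up and FAP and PDGFRA down. Melanocyte lineage markers rose for 4 of 6, 3 of 6 and 4 of 7 tested and none fell. The part of these markers in the collagen values was not tested.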

How the data were processed

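RNA-Seq libraries were made with a kit that does not mark strand. Per the submitters' processing notes, STAR, RSEM and DESeq2 were used with GRCh38. The signal values that the authors deposited are normalized expression per gene, scaled between libraries, and they are not read counts: between 3.88% and 37% of low values per library were whole multiples (within 0.01) of a single step. Of 10 genes that every cell uses, 0 were listed at 0.

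Tests were limma 3.58.1 in R 4.3.3 with a mean-variance trend on log2(value + 1), for genes with a group mean of at least 1, with all 12 libraries of a line in one fit (36 for lines) and Benjamini-Hochberg adjustment over all genes tested (22144 in 1205Lu, 22074 in WM793, 24370 in A375, 26779 for lines) at a threshold of 0.05. The test of read counts planned for whole-number files was not used, since the values are not counts. Python 3.11.15 with pandas 2.3.3, numpy 2.4.6 and matplotlib 3.10.9 was used for tables and figures. Gene types, exon lengths and overlaps came from GENCODE 44, which held 60401 of 60656 identifiers. Genes were named by a rule: the 4 largest rises and falls among called members per treatment comparison, the 5 leading members per line, partner chains of a type, and up to 3 called genes per list. Other members are named with their values where they were chosen after these were seen, such as the calls in only one arm. The members, the gene lists (collagen folding, processing, receptors, and markers of melanocytes, fibroblasts, keratinocytes, endothelium and immune cells) and the tests were chosen with earlier results of these data known.

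Replicates with the same number were compared by the correlation of their deviations from the group means across genes. All 3 correlations exceeded 0.1 for DOX under BRAFi + MEKi in 1205Lu (0.274, 0.109 and 0.113) and WM793 (0.251, 0.177 and 0.105). Alternatives were a pseudocount of 0.1, no filter, a replicate block, libraries rescaled to the same total, a fit of only the libraries compared, and leaving out each library. Simulated data were used for BRAFi + MEKi against DMSO. The genes given a change were drawn only from those above a set mean level, so the shares called do not cover members with low values. Of 100 genes with a log2 change of 1 limma called 49 (1205Lu), 56 (WM793) and 61 (A375), and of 100 with a change of 2 it called 87, 84 and 93. It also called 13, 3 and 9 unchanged genes.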

Additional observations from a re-analysis of the deposited data

Results flagged for a closer look

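All results listed here come from the test of the difference itself: the response to BRAFi + MEKi, taken as the log2 difference from DMSO on the log2(value + 1) scale, differed between 2 lines by limma's test in the fit of all 36 libraries at an adjusted p under 0.05. The values are the response in the first line minus that in the second, with 3 libraries per group.

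For 1205Lu against WM793 there were 9 such genes. The response was more positive, or less negative, in 1205Lu for COL9A1 (4.13), COL26A1 (3.16), COL15A1 (2.55), COL27A1 (2.02) and COL18A1 (1.46). It was more positive, or less negative, in WM793 for COL13A1 (-3.45), COL8A1 (-2.51), COL4A1 (-1.27) and COL4A2 (-0.96). Of these, 2 lost their call when 1 library was left out. COL26A1 was lost without 1205Lu BRAFi + MEKi replicate 1 or 1205Lu DMSO replicate 3 or WM793 BRAFi + MEKi replicate 2 (adjusted p between 0.053 and 0.07). COL4A2 was lost without WM793 BRAFi + MEKi replicate 2 or WM793 DMSO replicate 1 (adjusted p = 0.061 and 0.055).

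For 1205Lu against A375 there were 13 such genes. The response was more positive, or less negative, in 1205Lu for COL26A1 (4.09), COL1A1 (2.92), COL8A2 (2.59), COL4A1 (2.26), COL4A2 (2.24) and COL18A1 (1.47). It was more positive, or less negative, in A375 for COL3A1 (-4.81), COL4A4 (-4.04), COL8A1 (-3.44), COL11A2 (-2.51), COL7A1 (-2.29), COL15A1 (-1.54) and COL4A5 (-1.52). Of these, 2 lost their call when 1 library was left out. COL1A1 was lost without 1205Lu BRAFi + MEKi replicates 1 or 3 or 1205Lu DMSO replicate 1 or A375 BRAFi + MEKi replicates 1 or 2 or A375 DMSO replicates 1 or 2 (adjusted p between 0.052 and 0.076). COL8A2 was lost without A375 BRAFi + MEKi replicate 2 (adjusted p = 0.052).

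For WM793 against A375 there were 20 such genes. The response was more positive, or less negative, in WM793 for COL6A3 (4.44), COL13A1 (4.14), COL1A1 (3.88), COL4A1 (3.53), COL4A2 (3.20), COL8A2 (2.17) and COL5A1 (1.20). It was more positive, or less negative, in A375 for COL3A1 (-5.36), COL9A1 (-5.03), COL15A1 (-4.09), COL25A1 (-3.58), COL11A2 (-3.41), COL28A1 (-3.25), COL24A1 (-3.20), COL4A4 (-2.24), COL9A2 (-1.70), COL27A1 (-1.52), COL16A1 (-1.47), COL12A1 (-1.23) and COL4A5 (-1.21). Of these, 8 lost their call when 1 library was left out. COL12A1 was lost without A375 BRAFi + MEKi replicate 3 (adjusted p = 0.068). COL25A1 was lost without A375 BRAFi + MEKi replicate 3 or A375 DMSO replicates 2 or 3 or WM793 DMSO replicate 3 (adjusted p between 0.058 and 0.068). COL28A1 was lost without A375 BRAFi + MEKi replicates 1, 2 or 3 or A375 DMSO replicates 2 or 3 or WM793 BRAFi + MEKi replicates 1 or 3 or WM793 DMSO replicates 2 or 3 (adjusted p between 0.055 and 0.16). COL4A4 was lost without WM793 DMSO replicate 1 (adjusted p = 0.052). COL5A1 was lost without A375 BRAFi + MEKi replicates 1 or 2 or A375 DMSO replicate 3 or WM793 BRAFi + MEKi replicates 2 or 3 or WM793 DMSO replicate 1 (adjusted p between 0.076 and 0.11). COL6A3 was lost without A375 BRAFi + MEKi replicates 2 or 3 or A375 DMSO replicate 3 or WM793 BRAFi + MEKi replicate 2 or WM793 DMSO replicates 1 or 3 (adjusted p between 0.078 and 0.15). COL8A2 was lost without A375 BRAFi + MEKi replicates 1 or 2 or A375 DMSO replicates 1 or 3 or WM793 BRAFi + MEKi replicates 1 or 2 or WM793 DMSO replicates 1 or 3 (adjusted p between 0.052 and 0.091). COL9A2 was lost without A375 BRAFi + MEKi replicates 1 or 2 or A375 DMSO replicate 3 or WM793 BRAFi + MEKi replicate 1 or WM793 DMSO replicate 3 (adjusted p between 0.052 and 0.11).

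COL4A5 was listed at 0 in all 3 DMSO libraries of 1205Lu, so the size given for it in 1205Lu against A375 depends on the pseudocount. With a pseudocount of 0.1 in place of 1, 7 of the differences no longer passed the test. They are COL26A1 for 1205Lu against WM793 (4.56, adjusted p = 0.11), COL3A1 (-4.12, adjusted p = 0.18) and COL4A5 (-0.61, adjusted p = 0.7) for 1205Lu against A375, and COL24A1 (-3.29, adjusted p = 0.067), COL28A1 (-3.34, adjusted p = 0.35), COL4A5 (-1.21, adjusted p = 0.31) and COL6A3 (4.63, adjusted p = 0.19) for WM793 against A375. In 5 of the 7 the difference itself was as large or larger, and it was smaller for COL3A1 and for COL4A5 in 1205Lu against A375. COL4A1, COL4A2 and COL15A1 appear in all 3 pairs. These pairs share libraries and are not independent.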

How the results depend on the processing

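No called value changed direction under any alternative. Of 262 called values of members, the number that no longer passed the threshold was 15 with a pseudocount of 0.1, 8 without the filter, 12 with the replicate block, 5 with libraries rescaled to the same total and 22 with only the libraries compared, and in leave-one-out fits 213 of 1824. Rescaling moved the median of all genes under BRAFi + MEKi from 0.15 to 0.33 in WM793 and from 0.06 to 0.20 in A375. Calls for BRAFi + MEKi without DOX that were lost were COL4A4 in 1205Lu without the filter and with only the libraries compared, COL12A1 in WM793 when rescaled, COL6A1 and COL6A2 in WM793 with only the libraries compared and COL6A2 also without the filter, and in A375 COL25A1 with a pseudocount of 0.1, without the filter and with only the libraries compared, where COL22A1 was lost too. With DOX they were COL9A1 and COL1A2 (pseudocount of 0.1), COL2A1 (block) and COL1A2 (only the libraries compared) in WM793, and COL1A2 (block and only the libraries compared) and COL15A1 (only the libraries compared) in A375. The total of members called up or down for BRAFi + MEKi in a line stayed within 1.5 times under each of these settings. Some counts by direction or type did not. Leaving out a single library ended several falls together in WM793 and, with DOX, in 1205Lu and WM793, as given beside those counts. In A375 a single library ended several rises together, without and with DOX, also given beside the counts. With the block, the fibrillar falls with DOX lost COL2A1 in WM793 and COL1A2 in A375.

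The DOX counts moved by more than 1.5 times. For 1205Lu under BRAFi + MEKi, 2 members became 4 with the replicate block, 1 when rescaled, 0 with only the libraries compared, and 0 to 4 leaving out a library. For WM793 under DMSO, 2 became 1 with a pseudocount of 0.1, without the filter or when rescaled, 0 with only the libraries compared, and 0 to 3 leaving out a library, with 3 under the replicate block, where COL8A1 was added as higher with DOX (log2 0.81, adjusted p = 0.0089). For A375 under BRAFi + MEKi, 0 became 2 with the block (COL5A2 at log2 -0.82, adjusted p = 0.0015, and COL12A1 at log2 0.88, adjusted p = 0.049), whose same-number correlations were 0.0727, 0.0544 and 0.17, and 0 to 2 leaving out a library. For differences between lines in the DOX effect, 0 became 1 (COL27A1, 1205Lu against WM793), 1 (COL4A4, 1205Lu against A375) and 2 (COL27A1 and COL6A2, WM793 against A375) with the block, and 0 to 1, 0 to 2 and 0 to 1 leaving out a library. The cause was not tested. The 36 correlations between same-numbered libraries lay between 0.00367 and 0.274 (median 0.0952), 15 above 0.1, and the block changed no other total of called members by over 1.5 times. Whether depth limits the calls of members with low values, such as COL1A2, COL2A1 and COL28A1, was not tested.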
